A study of Mus musculus with 13 samples.

Results

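Low-input ATAC&mRNA-seq and Omni-ATAC were compared here where both protocols started from the same number of mouse embryonic stem cells. Members were the peak lists of single libraries from 5000 cells (low-input experiment 2 and Omni-ATAC) and from 10000 cells (low-input experiments 1 and 2 and Omni-ATAC), chosen by protocol and cell number from the sample titles. This gave 5 lists, 3 low-input and 2 Omni-ATAC, of the 8 ATAC libraries and 13 libraries in the series. All came from E14 cells, a line on the 129/Ola background kept in serum with leukemia inhibitory factor (LIF), with no genetic change or treatment between groups. In the low-input protocol a mild detergent opened the cells, the transposase Tn5 cut accessible DNA, and mRNA was pulled from the lysate with oligo-dT beads before the DNA was purified, so each ATAC library has an mRNA library from the same cells. Omni-ATAC, an established protocol, gave 1 library per cell number and no mRNA library, and its titles carry no experiment number. The titles separate low-input libraries by experiment, and nothing else says how independent the cultures were. Spread between lists may therefore be technical.

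ATAC-seq relies on Tn5, which inserts sequencing adapters where DNA is not covered by nucleosomes. Fragments pile up at promoters and enhancers, and a peak caller reports the stretches where the pile-up passes its threshold. Promoters of broadly expressed genes usually lie in CpG islands, stretches rich in the dinucleotide CpG, and are open in most cell types. Enhancers lie within genes or between them and tend to be open in fewer cell types, in stem cells often where the pluripotency factors Pou5f1, Sox2 and Nanog bind. A promoter was counted as found when a peak lay within 1000 bp of the transcription start site (TSS), taken as the 5′ end of the gene in the count table. Other peaks were called gene body where they overlapped a gene and intergenic elsewhere.

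The sequences shown are the 250 bases before the TSS of 4 genes with a discordant promoter. Rps3 and Rpl10a are the most highly expressed genes with a sequence whose promoter had a peak in all 3 low-input lists and in neither Omni-ATAC list. Nudt4 and Fxr1 are the most highly expressed genes with a sequence that had the reverse outcome. They are RefSeq sequences of GRCm38.p6, printed 5′ to 3′ on the strand of the gene, with each CpG in capitals. The Nudt4 sequence ends at a RefSeq start 21 bp from the start in the count table.
Rps3, chr7:99483710-99483959, minus strand: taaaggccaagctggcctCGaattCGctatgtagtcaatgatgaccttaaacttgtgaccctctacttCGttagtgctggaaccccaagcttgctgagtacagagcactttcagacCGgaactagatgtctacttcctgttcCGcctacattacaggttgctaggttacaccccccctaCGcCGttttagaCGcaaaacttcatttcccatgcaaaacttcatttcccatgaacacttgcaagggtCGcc
Rpl10a, chr17:28328221-28328470, plus strand: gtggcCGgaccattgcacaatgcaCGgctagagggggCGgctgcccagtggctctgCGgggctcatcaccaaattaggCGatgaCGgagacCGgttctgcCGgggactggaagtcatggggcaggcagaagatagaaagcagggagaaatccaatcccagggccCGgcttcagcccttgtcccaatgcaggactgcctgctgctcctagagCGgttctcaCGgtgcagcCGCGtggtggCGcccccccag
Nudt4, chr10:95564147-95564396, minus strand: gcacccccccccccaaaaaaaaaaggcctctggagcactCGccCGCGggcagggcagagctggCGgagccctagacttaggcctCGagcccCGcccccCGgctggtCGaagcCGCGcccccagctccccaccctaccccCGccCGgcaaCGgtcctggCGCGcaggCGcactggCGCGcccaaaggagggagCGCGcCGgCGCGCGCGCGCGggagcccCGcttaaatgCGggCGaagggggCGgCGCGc
Fxr1, chr3:34019829-34020078, plus strand: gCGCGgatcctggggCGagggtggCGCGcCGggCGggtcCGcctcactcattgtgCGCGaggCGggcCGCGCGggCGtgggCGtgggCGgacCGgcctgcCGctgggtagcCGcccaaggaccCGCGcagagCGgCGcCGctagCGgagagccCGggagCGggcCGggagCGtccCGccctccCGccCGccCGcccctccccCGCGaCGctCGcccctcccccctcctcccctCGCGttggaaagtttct

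The Rps3 and Rpl10a windows hold 9 and 14 CpG, and those of Nudt4 and Fxr1 hold 33 and 40. Over all 17878 genes with a sequence, 93.1% of such windows hold at least 1 CpG, with a median of 10 and quartiles of 3 and 19. The 4 genes were chosen by expression, and their windows are not a sample of CpG content in their groups.

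The lists differed in length in opposite directions at the 2 cell numbers. With 5000 cells the low-input list held 18637 peaks and the Omni-ATAC list 9097. With 10000 cells the low-input lists held 18877 (experiment 1) and 29870 (experiment 2) peaks, and the Omni-ATAC list 31207. The low-input list was thus the longer at 5000 cells, and both low-input lists were shorter than the Omni-ATAC list at 10000 cells. An exact permutation of the protocol within each cell number gave p = 0.833 (two-sided, 6 arrangements, adjusted p = 0.952 over 8 tests), and this design cannot go below p = 0.167. List length and protocol cannot be told apart with 1 Omni-ATAC library per cell number, and the ATAC read depth is unknown.

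Short intervals made up much of each list. Intervals of 9 bp, the shortest width, were 45.8% of the low-input list from 5000 cells and 59.2% of the Omni-ATAC list. With 10000 cells they were 45.0% and 38.0% of the low-input lists and 41.8% of the Omni-ATAC list. Peaks covered 1.40 Mb against 0.409 Mb with 5000 cells, and 1.39 and 2.84 Mb against 2.33 Mb with 10000 cells. The low-input list from experiment 2 thus covered more DNA than the slightly longer Omni-ATAC list from as many cells. Of its peaks 43.9% were at least 50 bp wide against 39.5%, and the median width of these was 162 bp against 141 bp.

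**Figure D1:**
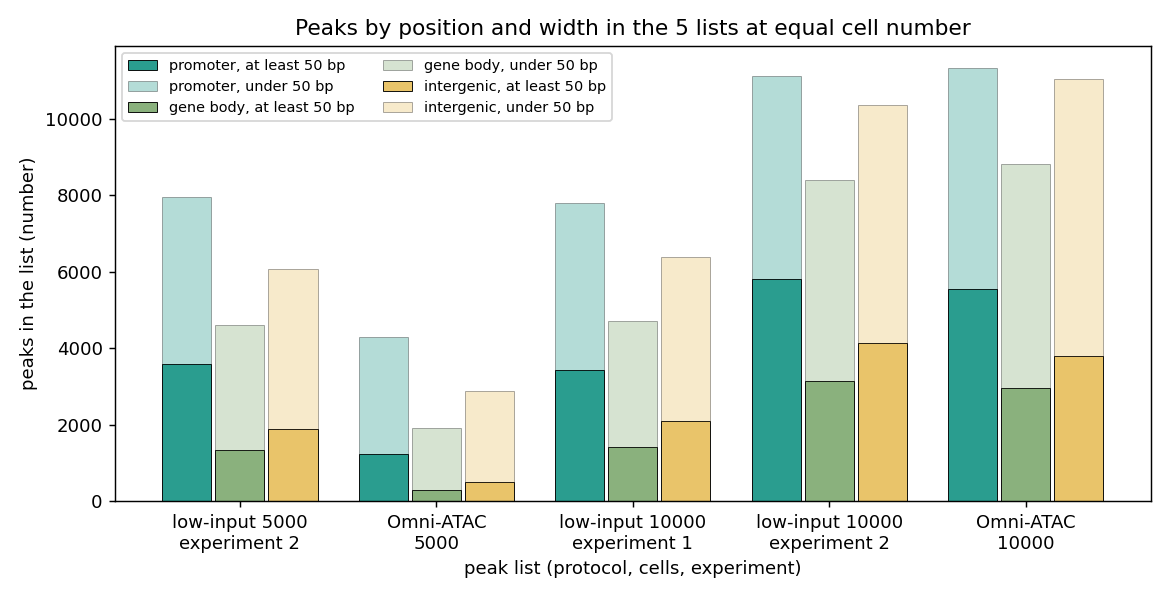
Number of peaks (vertical axis) in each of the 5 lists (horizontal axis) at promoters, in gene bodies and in intergenic DNA, with full colour for peaks of at least 50 bp and pale colour for shorter ones. The Omni-ATAC list from 5000 cells is the shortest with 9097 peaks, and the Omni-ATAC list from 10000 cells the longest with 31207.

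The makeup of the lists by position moved with their length. Promoter peaks were 42.6% of the low-input list (95% Wilson interval 41.9% to 43.3%) and 47.2% of the Omni-ATAC list (46.2% to 48.3%) with 5000 cells. With 10000 cells they were 41.2% and 37.2% of the low-input lists and 36.3% of the Omni-ATAC list. The longest list had the lowest promoter share and the shortest list the highest. Gene body peaks ran from 21.1% (Omni-ATAC, 5000 cells) to 28.3% (Omni-ATAC, 10000 cells), and the low-input lists lay between, at 24.8%, 24.9% and 28.1%. Intergenic peaks were 32.6% against 31.6% with 5000 cells, and 33.8% and 34.7% against 35.4% with 10000 cells. The exact permutation test gave p = 0.833 for the promoter and gene body shares and p = 1 for the intergenic share (adjusted p = 0.952, 0.952 and 1). When only the 9097 widest peaks of every list were kept, low-input minus Omni-ATAC in promoter share was 3.48 points with 5000 cells and 0.34 points, as the mean of both low-input lists, with 10000 cells, against -4.60 and 2.89 points over the whole lists. In gene body share it was -0.53 and -1.13 points against 3.66 and -1.71. In intergenic share it was -2.96 and 0.79 points against 0.95 and -1.17. At equal length the opposite directions at the 2 cell numbers were thus not present in the promoter and gene body shares, and in the intergenic share they were present with the signs exchanged.

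Promoters were the class on which the protocols overlapped most. With 5000 cells 38.5% of the low-input promoter peaks overlapped an Omni-ATAC peak, against 21.3% of gene body and 24.3% of intergenic peaks. In the other direction 72.9% of the Omni-ATAC promoter peaks overlapped a low-input peak, against 51.7% of its gene body peaks and 51.7% of its intergenic peaks. Promoter peaks came first with 10000 cells too. In low-input experiment 1 the shares overlapped by Omni-ATAC were 73.6%, 56.3% and 55.1% for promoter, gene body and intergenic peaks, and in experiment 2 they were 65.7%, 46.8% and 48.7%. Of the Omni-ATAC peaks from 10000 cells, experiment 2 overlapped 65.8%, 44.7% and 46.2% in the same order of classes, and experiment 1 overlapped 50.3%, 29.8% and 31.9%. In a repeat of 1 protocol at 10000 cells, experiment 2 overlapped 79.9%, 65.3% and 66.5% of the low-input peaks of experiment 1. Experiment 1 overlapped 54.3%, 36.2% and 40.3% of those of experiment 2. The 2 directions of the repeat thus lay on either side of the shares between experiment 2 and Omni-ATAC.

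Peaks without a counterpart were mostly the short ones. Of the low-input peaks from 5000 cells that Omni-ATAC overlapped, 68.6% were at least 50 bp wide, against 23.1% of those it did not. The reverse comparison gave 33.8% and 4.19%. When each list was limited to its 9097 widest peaks, 56.3% of low-input promoter peaks overlapped an Omni-ATAC peak with 5000 cells, and 62.2% of the Omni-ATAC promoter peaks a low-input peak. At this equal length the gene body shares were 37.7% and 37.3%, and the intergenic shares 41.1% and 37.8%.

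At the level of genes, the count table gave 24470 promoters. With 5000 cells low-input found 7617 of them (31.1%) and Omni-ATAC 4545 (18.6%). With 10000 cells low-input found 7601 (31.1%) in experiment 1 and 9922 (40.5%) in experiment 2, and Omni-ATAC found 10152 (41.5%). The count of promoters thus had the order of the list lengths at each cell number, and the exact permutation test gave p = 0.833 (adjusted p = 0.952). When only the 9097 widest peaks of every list were kept, low-input minus Omni-ATAC was 470 promoters with 5000 cells and 23.5 with 10000 cells, against 3072 and -1390.5 over the whole lists. At equal length the difference with 10000 cells thus changed direction and that with 5000 cells was much smaller.

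The missed promoters fell on opposite sides at the 2 cell numbers. With 5000 cells 3990 promoters had a peak in both lists, 3627 in the low-input list alone (14.8% of all promoters) and 555 in the Omni-ATAC list alone (2.27%). So 47.6% of the low-input promoters were missed by Omni-ATAC, and 12.2% of the Omni-ATAC promoters were missed by low-input. At equal list length the counts with 5000 cells were 1750 for low-input alone and 1280 for Omni-ATAC alone, and with peaks of at least 50 bp they were 2773 and 170. With 10000 cells 6598 promoters were in all 3 lists, 459 in both low-input lists and not in Omni-ATAC (1.88%), and 1307 in Omni-ATAC and neither low-input list (5.34%). At equal list length these 2 counts were 686 and 875. Taken singly, experiment 1 missed 31.8% of the Omni-ATAC promoters and experiment 2 missed 16.0%, while Omni-ATAC missed 8.96% and 14.1% of theirs.

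A repeat of the low-input protocol gave differences of like size. Between experiments 1 and 2 at 10000 cells, 7057 promoters were shared, 544 were in experiment 1 alone and 2865 in experiment 2 alone, a Jaccard index (shared over found by either) of 0.674. The index for Omni-ATAC was 0.738 with experiment 2 and 0.639 with experiment 1. The repeat of low-input therefore lay between the values of the 2 comparisons across protocols, and with 5000 cells the index was 0.488.

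**Figure D2:**
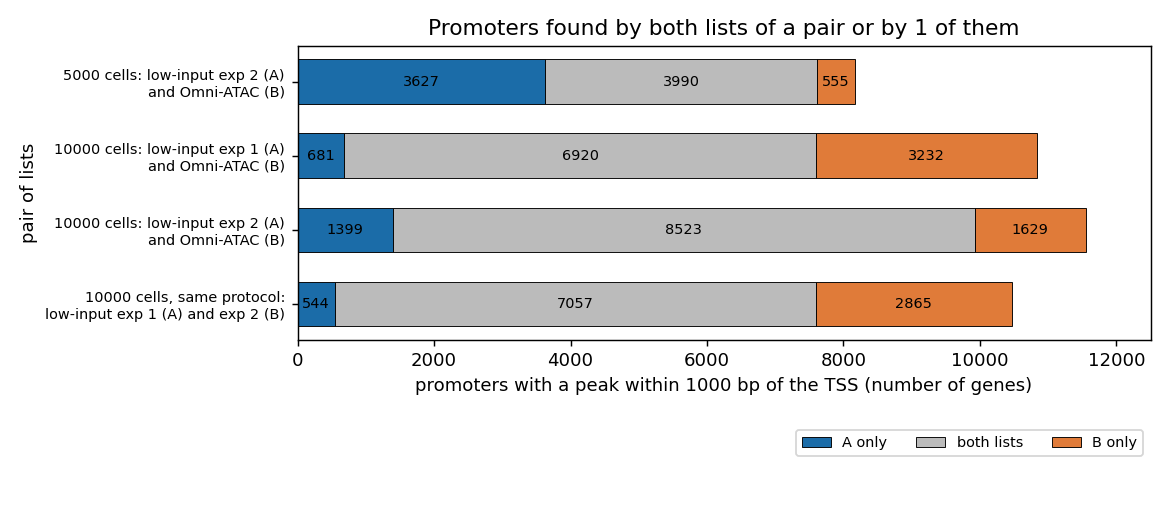
Number of promoters (horizontal axis, genes with a peak within 1000 bp of the TSS) found by both lists of a pair or by 1 of them, for the 3 pairs across protocols and, in the lowest bar, the repeat of the low-input protocol. Low-input alone holds 3627 promoters with 5000 cells, whereas with 10000 cells the larger exclusive share is that of Omni-ATAC (3232 and 1629).

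Few promoters separated the protocols at both cell numbers. A peak in all 3 low-input lists and neither Omni-ATAC list was found at 183 promoters (0.748% of all), and the reverse at 49 (0.2%), beside 3654 found in every list and 12463 found in none. At equal list length the counts were 204 and 140, and with peaks of at least 50 bp 166 and 14, so their ratio moved with the setting. The Omni-ATAC list from 50000 cells had a peak at 100% of the 183 and 98.0% of the 49. The low-input lists from 20000 cells held 80.9% (experiment 1) and 98.9% (experiment 2) of the 183, and 36.7% and 81.6% of the 49, so the low-input list of experiment 1 lacked most of the 49. In the Omni-ATAC list from 50000 cells the median peak width was 394 bp at the 183 and 308.5 bp at the 49, against 572 bp at promoters found in every list. The discordant promoters thus had a lower median width in the longest list, whichever protocol found them.

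Chromosome 8 held unlike shares of the 183 and the 49, on small counts. It held 17 of the 183 low-input promoters (9.29%) and 0 of the 49 Omni-ATAC promoters (which allows a share of up to 6.12%), against 4.89% of all promoters. Of promoters found in every list it held 6.10%, and of those in no list 4.11%. The limit for the 49 lies above the shares of all promoters and of those found in every list. Its share of peaks was 7.42% and 6.98% in the low-input lists of experiment 2, 5.41% in experiment 1, and 5.36% and 5.23% in Omni-ATAC. The 2 low-input lists of experiment 2 were thus high on this chromosome. Chromosome 14 grouped the lists in the same way, with 3.22% and 3.13% of peaks in experiment 2, 2.37% in experiment 1, and 2.67% and 2.66% in Omni-ATAC. Chromosome 15 grouped them otherwise, with 5.16% and 5.17% in experiment 2, 6.17% in experiment 1, and 3.90% and 6.002% in Omni-ATAC. With 5000 cells the low-input list is from experiment 2, so experiment and protocol cannot be told apart there. Without chromosome 8 the counts were 166 and 49.

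The 10 most highly expressed genes of the 183 included 3 ribosomal proteins, with levels given as CPM, counts scaled to the library total, over 3 low-input mRNA libraries, from 5000 cells and from 10000 cells in both experiments. CPM were not scaled to transcript length, which the count table does not give, so each order of genes or gene groups by CPM in the text also takes in their length. Rps3, a protein of the small ribosomal subunit, had a mean of 3879 ± 87.4 CPM (SD, n = 3). Its widest promoter peak was 9 bp in the low-input list from 5000 cells and 194 bp in each of the 2 from 10000 cells, and neither Omni-ATAC list had one, although the Omni-ATAC list from 50000 cells had one of 205 bp. Rpl10a, a protein of the large subunit (2881 ± 290 CPM), had peaks of 20, 9 and 95 bp in the low-input lists, taken here and below as 5000 cells, experiment 1 and experiment 2 with 10000 cells. Rpl28, another (1903 ± 130 CPM), had peaks of 211, 18 and 216 bp. At Rps3 and Rpl28 the low-input peaks thus ranged from about the shortest width to that of a full promoter peak, at promoters that both Omni-ATAC lists lacked.

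The other 7 were Apoe, Tpt1, Eif2s2, Kdm1a, Itpa, Sf3a3 and Bud23. Apoe, a lipid-carrying apolipoprotein, had low-input peaks of 29, 17 and 24 bp. Tpt1, the translationally controlled tumor protein, had peaks of 14, 9 and 160 bp. Eif2s2, a subunit of the translation initiation factor eIF2, had peaks of 80, 10 and 183 bp. At Apoe no low-input list reached 50 bp, and at Tpt1 and Eif2s2 experiment 2 with 10000 cells held the widest. Kdm1a, a histone demethylase (peaks of 9, 9 and 12 bp), and Sf3a3, a splicing factor (9 bp in all 3), were found on intervals of at most 12 bp. Itpa, which clears deaminated purine nucleotides, had peaks of 9, 119 and 172 bp, and Bud23, a methyltransferase of ribosomal RNA, 9, 9 and 77 bp.

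The 10 most highly expressed of the 49 Omni-ATAC promoters mostly rested on narrow intervals. Eftud2, a splicing GTPase (317 ± 34.3 CPM), Ilkap, a phosphatase, Fxr1, an RNA-binding protein related to the fragile X protein (90.0 ± 4.53 CPM), Tpp1, a lysosomal peptidase, and Smc2, a condensin subunit, had 9 bp in both Omni-ATAC lists. Nudt4, a hydrolase of diphosphoinositol polyphosphates (177 ± 46.9 CPM), had 25 bp in both. Vbp1, a prefoldin subunit, had 9 bp with 5000 and 89 bp with 10000 cells, and Dync2i2, a subunit of the motor of transport in cilia, 9 and 104 bp. Commd8 had 11 and 10 bp, and Ccndbp1, which binds cyclin D, 9 and 16 bp. In the Omni-ATAC list from 50000 cells these 10 promoters had peaks of 137 to 790 bp. Of the 49 promoters, 98.0% had a peak under 50 bp in the Omni-ATAC list from 5000 cells and 85.7% in that from 10000 cells. Of the 183 it was 77.6%, 77.0% and 50.8% in the 3 low-input lists. Over all promoter peaks, 28.9% and 49.0% were at least 50 bp wide in these Omni-ATAC lists, and 45.1%, 44.1% and 52.4% in the low-input lists. The lists thus differ in width throughout, and the 2 groups rest on 2 and 3 lists, so their widths are not compared.

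Genes with a promoter found by one protocol had a lower median level than those found by both. In the mRNA library from 5000 cells the median was 8.95 CPM (95% interval of the median from binomial order statistics, 8.11 to 9.84) for the 3627 low-input genes, 4.65 CPM (3.40 to 6.62) for the 555 Omni-ATAC genes and 13.2 CPM for the 3990 found by both. With 10000 cells the median of the mean level of the 2 mRNA libraries was 8.45 CPM (5.77 to 11.8) for the 459 low-input genes and 2.34 CPM (1.81 to 2.91) for the 1307 Omni-ATAC genes. In the 2 libraries taken singly, genes found in all 3 lists had medians of 12.2 and 12.6 CPM. Among these groups of found promoters, genes of Omni-ATAC alone had the lowest medians at both cell numbers, and genes in no list had a median of 0 CPM in each library. With 10000 cells a low-input gene had to have a peak in both lists and an Omni-ATAC gene in 1. Promoters that only 1 of the 2 low-input lists from 10000 cells found also had low medians, of 5.76 CPM for experiment 2 alone and 3.68 CPM for experiment 1 alone, over the mean of the 3 mRNA libraries. On that scale the 459 low-input genes had 8.18 CPM and the 1307 Omni-ATAC genes 2.21 CPM. A low level was thus not particular to promoters found by Omni-ATAC. The mRNA came from the low-input cells, so no matching level exists for the Omni-ATAC cells, and no test was made.

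Every list found more promoters at higher expression. Among 1362 genes of at least 100 CPM, low-input found 65.6% and Omni-ATAC 40.7% with 5000 cells, and low-input found 64.0% and 79.7% and Omni-ATAC 77.8% with 10000 cells. Among 5845 genes without a count, the shares were 3.58% and 1.98%, then 3.80%, 5.95% and 6.59%. Experiment 2 and Omni-ATAC with 10000 cells, the pair across protocols closest in list length, crossed over: at genes above 0 and under 1 CPM experiment 2 found 22.7% (95% Wilson interval 21.7% to 23.7%) and Omni-ATAC 25.1% (24.1% to 26.1%), whereas at 100 CPM or more they found 79.7% (77.4% to 81.7%) and 77.8% (75.5% to 79.9%). The intervals cover counting error over genes in 1 library each, and those of the highest level overlap.

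**Figure D3:**
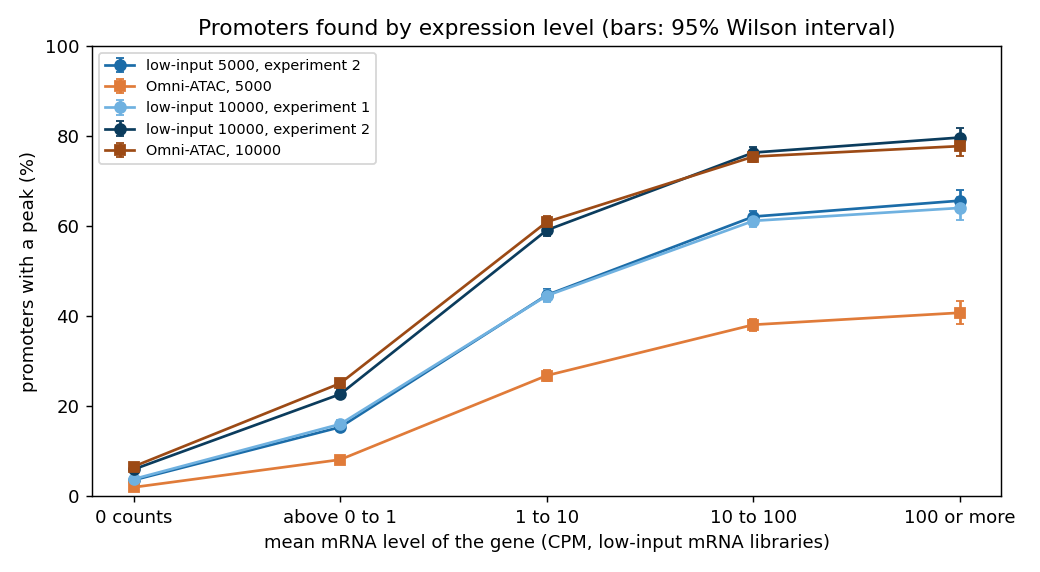
Share of promoters with a peak (vertical axis, %) by the mean mRNA level of the gene (horizontal axis, CPM classes) for the 5 lists, with 95% Wilson intervals. The share climbs with expression in each list, from 1.98% to 6.59% of genes without a count up to 40.7% to 79.7% of genes of at least 100 CPM.

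Base composition was described for the promoters that 1 protocol missed and that had a sequence. In windows of 300 bases, from 250 before to 50 after the RefSeq TSS, the median GC content was 62.0% for promoters found by low-input alone and 62.3% for those found by Omni-ATAC alone with 5000 cells. With 10000 cells it was 61.3% for both. For the 183 and the 49 it was 60.7% (quartiles 56.0% and 67.7%) and 64.0% (56.3% and 68.5%). With 10000 cells the median ratio of observed to expected CpG was 0.785 (95% interval of the median 0.754 to 0.804) for low-input alone and 0.731 (0.711 to 0.755) for Omni-ATAC alone. This ratio ran from 0.731 to 0.798 in these 6 groups, and it was 0.231 for promoters in no list, whose median GC content was 49.0%. A sequence was matched for 85.2% of the 183, 80.0% of the 3627 and 73.2% to 79.6% of the other 4 groups. For those 4, where under 80% had a sequence, the check is void and the values stand as a description. Each of the 3 pairs has such a group, so no difference or likeness is read from them.

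Features with a peak in all 3 lists from larger inputs, low-input with 20000 cells in both experiments and Omni-ATAC with 50000 cells, served as a reference taken from other libraries. Of the 3 lists 2 are low-input, so the reference is not balanced between the protocols. Of 8906 reference promoters, low-input found 75.8% and Omni-ATAC 47.7% with 5000 cells, and low-input found 76.4% and 90.7% and Omni-ATAC 88.9% with 10000 cells. Of 5648 gene body regions the shares were 52.4% against 23.7%, then 55.5% and 76.7% against 69.7%. Of 7288 intergenic regions they were 54.2% against 27.3%, then 57.8% and 77.0% against 70.1%. With 5000 cells low-input was the higher in each class, and with 10000 cells Omni-ATAC lay between the 2 low-input experiments in each class. The exact permutation test gave p = 0.667 for each class (adjusted p = 0.952). These gaps depended on the reference. Against features of the Omni-ATAC list from 50000 cells alone, low-input minus Omni-ATAC with 5000 cells was 20.5 points for promoters, 6.71 for gene body and 6.25 for intergenic regions, and with 10000 cells it was -9.33, -6.18 and -6.22 points. Against the first reference these differences were 28.1, 28.6 and 26.8 points, then -5.31, -3.62 and -2.69 points. When only the 9097 widest peaks of every list were kept, the first reference gave 6.95, 5.10 and 2.62 points with 5000 cells and 2.16, 1.96 and 4.35 points with 10000 cells, so the mean of the low-input lists from 10000 cells was then the higher in each class. The exact permutation p was 0.833, 1 and 1 with the Omni-ATAC reference, and 0.333, 0.167 and 0.167 at equal length, where 0.167 is the smallest p this design can give.

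**Figure D4:**
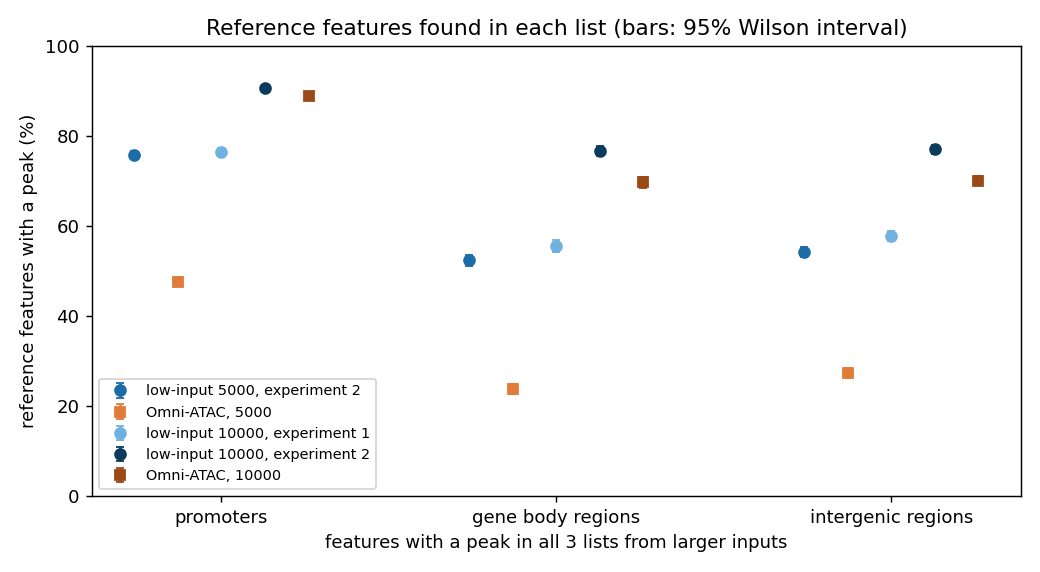
Share of reference features (vertical axis, %) with a peak in each of the 5 lists, for promoters, gene body regions and intergenic regions (horizontal axis), with 95% Wilson intervals. The Omni-ATAC list from 5000 cells is lowest in each class (47.7%, 23.7% and 27.3%), and experiment 2 from 10000 cells highest (90.7%, 76.7% and 77.0%).

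Genes of 13 lists were then followed. Counts are given for low-input and Omni-ATAC with 5000 cells, then for experiment 1, experiment 2 and Omni-ATAC with 10000 cells. They are read against the share of all promoters found in the same lists (31.1%, 18.6%, 31.1%, 40.5% and 41.5%). Most of the lists hold expressed genes, and among the 6434 genes of at least 10 CPM the shares were 62.9%, 38.7%, 61.8%, 77.0% and 75.9%. Lists of expressed genes are to be read against these higher shares. No list was tested, because its members were chosen with results of these data known.

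Pluripotency factors hold embryonic stem cells in the undifferentiated state. Of 20 such genes, 19 of them of at least 10 CPM, the promoters of 9 and 8 had a peak with 5000 cells, and those of 9, 13 and 12 with 10000 cells. These shares (45%, 40%, 45%, 65% and 60%) were below those of genes of at least 10 CPM, except in Omni-ATAC with 5000 cells. The promoters of Fbxo15, Klf2, Klf5, Sox2, Tbx3, Zfp281 and Zfp42 had one in every list, and those of Esrrb, Lin28a, Nanog, Nr0b1 and Tdgf1 in none. Klf2, a Krüppel-like factor, had peaks of 280, 190 and 280 bp in the low-input lists and of 14 and 9 bp in the Omni-ATAC lists. All 3 low-input peaks at Klf2 were thus wider than both Omni-ATAC ones. Sox2, a partner of Pou5f1 on DNA, had 217, 17 and 217 bp against 9 and 77 bp, where experiment 1 lay among the Omni-ATAC values. Pou5f1 itself (197 ± 38.4 CPM) had 9 bp with 5000 cells and 191 bp in experiment 2, and none in experiment 1 or either Omni-ATAC list. Utf1, a chromatin-bound transcriptional regulator of stem cells, had 9, 176 and 189 bp, against none and 19 bp. Klf4 went the other way with 5000 cells, with none against 9 bp, and had none in experiment 1, 299 bp in experiment 2 and 205 bp in Omni-ATAC with 10000 cells.

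Sites away from the TSS were followed for the same genes. Within 100 kb of a pluripotency gene and nearest to it lay 115 gene body or intergenic regions, merged over the 5 lists, of which low-input found 40 and Omni-ATAC 20 with 5000 cells, and the lists from 10000 cells found 45, 67 and 65. These are 34.8% and 17.4%, then 39.1%, 58.3% and 56.5%, against 30.1% and 13.4%, then 31.5%, 53.8% and 54.9% of the 29557 such regions of all genes, so the lists had the same order as over all genes with 5000 cells, and with 10000 cells experiment 2 and Omni-ATAC were close in both. Every list held 14 of them, 2 were found by low-input at both cell numbers and not by Omni-ATAC, and 0 the reverse. Over all genes every list held 6.06% of such regions and low-input alone 1.88% at both cell numbers, beside 12.2% and 1.74% here. Nanog, with no promoter peak, had a region 4.26 kb from its TSS (chr6:122702497-122703230) in all 5 lists with a mean peak width of 553 bp, and a second one 37.8 kb away. A region 1.89 kb from the Pou5f1 TSS (chr17:35503931-35504139) was in the 3 low-input lists and in Omni-ATAC with 10000 cells, and 1 at 15.4 kb (chr17:35490455-35490682) in all 5. A region 17.3 kb from the Klf4 TSS (chr4:55514776-55515203) was in all but the Omni-ATAC list from 5000 cells. The 2 regions that separated the protocols lay 19.7 kb from Zfp281 (chr1:136644591-136644768) and 41.0 kb from Klf5 (chr14:99339706-99339968), and the Omni-ATAC list from 50000 cells held both.

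LIF, in the medium, acts through its receptor (Lifr with Il6st), the kinase Jak1 and the factor Stat3 on targets such as Socs3. Of 10 genes of this pathway, 7 and 4 promoters were found with 5000 cells and 8, 9 and 7 with 10000 cells. Among the receptors and kinase, Il6st had 125, 9 and 41 bp against 9 and 64 bp, Jak1 9, 35 and 24 bp against 16 and 185 bp, and Lifr 9, 19 and 11 bp against none and 210 bp. For Jak1 and Lifr the widest peak was that of Omni-ATAC with 10000 cells. Stat3 had 416, 367 and 505 bp against 80 and 372 bp, and its feedback inhibitor Socs3 431, 85 and 432 bp against 78 and 298 bp. Gbx2, a homeobox target of the pathway, and Mcl1, an inhibitor of apoptosis, had a peak in all 3 low-input lists and neither Omni-ATAC list. At Mcl1 the peaks were 137, 9 and 186 bp wide, and at Gbx2 9 bp in all 3.

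BMP, Nodal, FGF and Wnt signals balance self-renewal against differentiation. Of 20 genes, 10 and 4 promoters were found with 5000 cells and 8, 14 and 10 with 10000 cells. The FGF-responsive genes Dusp6, Etv4 and Etv5 had a peak in every list. Id3, a BMP target that blocks differentiation factors (181 ± 13.5 CPM), had 9, 217 and 155 bp in the low-input lists and none in Omni-ATAC with 5000 or 10000 cells. Spry4, an inhibitor of FGF signalling, had 212, 206 and 204 bp against none and 138 bp, and Smad7, an inhibitor of BMP and Nodal signalling, 17, 144 and 587 bp against none and 267 bp. Low-input held these at 5000 cells and Omni-ATAC did not. The ligands Bmp4 and Fgf4, the inhibitors Lefty1 and Lefty2 and the Wnt effectors Ctnnb1 and Lef1 had none in any of the 5 lists.

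Developmental regulators, which direct differentiation and are nearly silent in stem cells, were found most by Omni-ATAC with 10000 cells, as were all promoters and those of genes without a count or under 1 CPM. Of 20 genes, none of which reached 10 CPM, low-input found 4 and Omni-ATAC 0 with 5000 cells, and low-input found 3 and 4 and Omni-ATAC 7 with 10000 cells. Cdx2, the trophoblast factor, and Sox1, a neural factor, had peaks of 160 and 118 bp in Omni-ATAC with 10000 cells and none in the 3 low-input lists. Gata6, an endoderm factor, and Neurod1, a neuronal factor, had 19 and 9 bp there. Of 15 germline genes, low-input found 0 and Omni-ATAC 1 with 5000 cells, and low-input found 1 and 1 and Omni-ATAC 4 with 10000 cells. Dazl, an RNA-binding protein of germ cells, had none, 14 and 299 bp in low-input against 9 and 67 bp, so its widest peak was that of experiment 2. Mael, Stk31 and Tuba3a had 11, 11 and 69 bp in Omni-ATAC with 10000 cells and none in the other 4 lists. Of 1119 genes of olfactory receptors, which sense odours in the nose, each list found 2 or, in Omni-ATAC with 5000 cells, 0.

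Ribosomal protein genes had the reverse order with 10000 cells. Of 24 genes, all above 10 CPM, 12 and 6 promoters were found with 5000 cells and 12, 18 and 10 with 10000 cells. The shares (50%, 25%, 50%, 75% and 41.7%) were below those of genes of at least 10 CPM in every list. Experiment 2 and Omni-ATAC were close over all promoters (40.5% and 41.5%) and over genes of at least 10 CPM (77.0% and 75.9%), and differed by 8 genes here. Rpl7, Rps14, Rps19, Rps20 and Rps3 had a peak in both low-input lists and not in Omni-ATAC with 10000 cells, and Rpl4 the reverse. Rpl7 had 104, 101 and 357 bp in low-input, 9 bp in Omni-ATAC with 5000 cells and none with 10000 cells. Rpl13, on chromosome 8, had 202 bp with 5000 cells and 212 bp in experiment 2, and none in experiment 1 or Omni-ATAC. Rplp0, a protein of the ribosomal stalk, had a peak in every list. Ribosomal protein genes have many near-identical pseudogene copies, and how reads matching several places were treated is not given in the sources used here.

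In the splicing, glycolysis and replication lists the number of genes found differed by at most 1 between the 3 lists from 10000 cells, although the genes were not all the same. Splicing genes had a peak at 17 of 18 promoters in each low-input list and in Omni-ATAC with 10000 cells, and at 11 in Omni-ATAC with 5000 cells. Glycolysis genes had one at 9 of 14 in the same 4 lists and at 6 in Omni-ATAC with 5000 cells. Replication genes, among them the Mcm helicase subunits, had 12 and 10 of 14 with 5000 cells and 13, 13 and 14 with 10000 cells. Proteasome genes had 11 and 4 of 20 with 5000 cells and 10, 14 and 14 with 10000 cells, so experiment 1 held fewer there (50% against 70%), as over all promoters. Psma2, a subunit of the catalytic core, had 170, 266 and 223 bp against none and 170 bp. In each of these 4 lists Omni-ATAC with 5000 cells held the fewest, while Omni-ATAC with 10000 cells held as many as, or more than, at least 1 low-input list of 10000 cells.

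Chromatin regulators and immediate early genes were mixed. Of 24 chromatin regulators, 12 and 8 promoters were found with 5000 cells and 15, 17 and 16 with 10000 cells. Ezh2, the methyltransferase of Polycomb repressive complex 2, had 106, 37 and 106 bp against none and 294 bp, and Suz12, its partner, none, 11 and 118 bp against 9 and 156 bp. Eed, the third subunit, had 9 bp in both low-input lists from 10000 cells and none in the other 3. Of 12 immediate early genes, which respond within minutes to stress and growth factors, 5 and 4 were found with 5000 cells and 5, 8 and 8 with 10000 cells. Myc had 274, 285 and 492 bp against none and 463 bp. Jun had none, 9 and 9 bp against none and 329 bp, and Fosb 9, none and 9 bp against none in both.

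**Figure D5:**
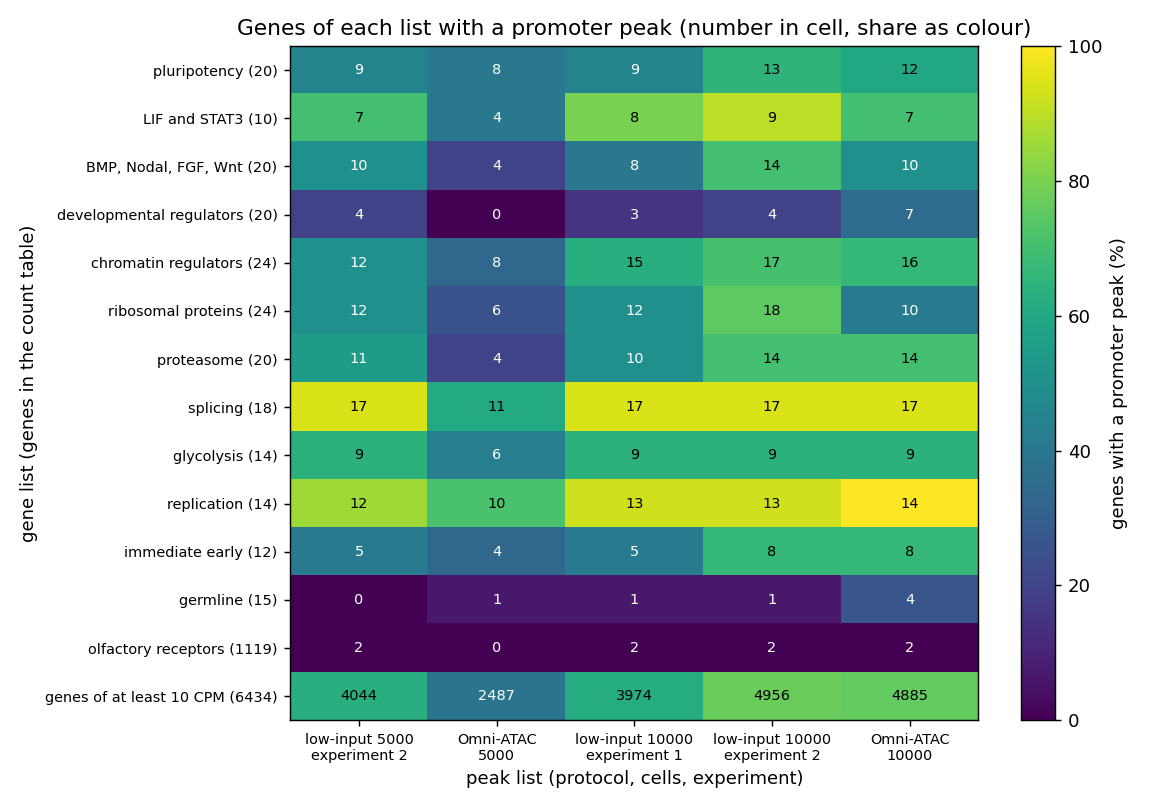
Genes with a promoter peak in each list (columns) for 13 gene lists and for all genes of at least 10 CPM (rows, with the number of genes measured). Numbers are genes, and colour is their share in %. Ribosomal proteins had 18 in low-input experiment 2 against 10 in Omni-ATAC with 10000 cells, and developmental regulators had 4 against 7.

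With promoters included, the 5 lists merged into 52320 regions, of which every list held 5073. Low-input alone held 863 at both cell numbers (1.65% of regions): 218 at promoters, 243 in gene bodies and 402 intergenic. Omni-ATAC alone held 278 (0.531%): 68, 80 and 130. The makeup was nearly the same for both, with 46.6% and 46.8% intergenic and 25.3% and 24.5% at promoters, whereas 58.6% of the regions in every list were at promoters. Over all 52320 regions 32.7% were at promoters, 30.1% in gene bodies and 37.2% intergenic. The regions of 1 protocol thus had a promoter share below that of all regions, and the regions in every list one above it. Of the 863, the Omni-ATAC list from 50000 cells held 99.1% of promoter, 93.0% of gene body and 78.9% of intergenic regions. Of the 278, low-input experiment 2 from 20000 cells held 66.2%, 66.2% and 51.5%, and experiment 1 held 33.8%, 35.0% and 26.2%. Over all 52320 regions the Omni-ATAC list from 50000 cells held 94.9%, 86.0% and 85.7% in these classes. The low-input lists from 20000 cells held 75.1%, 61.6% and 62.5% (experiment 2) and 49.7%, 34.7% and 37.3% (experiment 1). For the 278 the low-input shares were thus below those of all regions at promoters and intergenic sites, and not in gene bodies. For the 863 the Omni-ATAC share was below that of all regions at intergenic sites only.

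The widest gene body regions of low-input alone had peaks well above the shortest width in each of the 3 lists, except the one in Dop1b. In Slc6a6, the taurine transporter, a region 26.4 kb from the TSS (chr6:91710511-91711011) had peaks of 295, 322 and 367 bp, no Omni-ATAC peak with 5000 or 10000 cells, and one of 657 bp with 50000 cells. A region in Zfp536 (chr7:37553769-37554195), a zinc finger gene, had 177, 136 and 427 bp. One in D5Ertd579e (chr5:36630548-36630759) had 210, 209 and 209 bp, with 207 and 205 bp in the low-input lists from 20000 cells, and no peak in Omni-ATAC with 5000, 10000 or 50000 cells. That region kept almost the same width in 5 low-input lists and was in 0 of 3 Omni-ATAC lists. Regions in Dop1b (chr16:93794875-93795171; 297, 9 and 285 bp) and in 1190005I06Rik and the overlapping Gm27021 (chr8:120632068-120632379; 179, 97 and 312 bp) completed the 5 widest.

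The 5 widest intergenic regions of the low-input lists had the TSS of Trmt9b, Slc1a3, Nectin1, Lncenc1 and Lbh as the nearest. The region by Slc1a3, a glutamate transporter (chr15:8831995-8832378, 121 kb away), had 99, 384 and 384 bp, and Omni-ATAC with 50000 cells had 390 bp. The region by Lncenc1, a noncoding RNA of naive stem cells expressed here at 120.4 CPM, lay 1.93 kb from its TSS (chr13:97432712-97433043) and had 328, 39 and 332 bp. Those by Trmt9b (chr8:36547926-36548310, 58.7 kb), Nectin1 (chr9:43729662-43730109, 14.5 kb) and Lbh (chr17:72881898-72882129, 36.2 kb) had low-input peaks of 153 to 385 bp. All 5 were held by Omni-ATAC with 50000 cells. The nearest genes other than Lncenc1 had means of 0.0943 to 3.89 CPM.

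The widest regions of Omni-ATAC alone were taken from fewer regions and over 2 lists in place of 3, so their widths are not compared with those of low-input. In gene bodies they lay in Acot7 (chr4:152263904-152264069; 166 bp with 5000 and 79 bp with 10000 cells), Akap12 (chr10:4284871-4285061; 9 and 191 bp), Ddr1 (chr17:35698131-35698319; 9 and 189 bp), Zmynd8 (chr2:165808234-165808420; 9 and 187 bp) and Trappc12 (chr12:28694376-28694465; 90 and 88 bp). Between genes they were nearest to Arhgef26 (chr3:62159080-62159362; 283 and 171 bp), Wnt11 (chr7:98815943-98816361; 9 and 419 bp), Gm5458 (chr14:19416579-19416780; 202 and 177 bp), Neto1 (chr18:85698101-85698278; 178 and 145 bp) and Plekha1 (chr7:130834432-130834641; 210 and 75 bp). The regions in Akap12 and by Arhgef26, Gm5458 and Neto1 had no peak in any of the 5 low-input lists, those from 20000 cells included. Each of the 10 had a peak in Omni-ATAC with 50000 cells, of 153 to 1509 bp.

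Merged over all 8 ATAC lists, 107870 regions were obtained, and 78 (0.0723%) had a peak in all 5 low-input lists and in no Omni-ATAC list. The reverse, a peak in all 3 Omni-ATAC lists and in no low-input list, was found at 90 regions (0.0834%). Of the 78, 66 were intergenic and 1 was at a promoter. Of the 90, 56 were intergenic and 10 at promoters. The 78 were concentrated in 2 places, noticed after the lists had been compared: 16 lay in the first assembled bases of chromosome 9 beside the centromere (chr9:3000002-3038222), where the count table has no gene, and 20 on the unplaced scaffold JH584304. Together these held 46.2% of the 78 and 8.89% of the 90, against 0.202% of all regions.

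On the chromosome 9 block the low-input lists held 51, 54 and 52 peaks covering 6767, 5220 and 6657 bp. Omni-ATAC held 44 peaks covering 3400 bp with 5000 cells and 26 covering 802 bp with 10000 cells. The low-input lists from 20000 cells covered 6374 and 6007 bp there, and Omni-ATAC with 50000 cells covered 2771 bp on 44 peaks. The 5 low-input lists thus covered 5220 to 6767 bp of this block although they ran from 18637 to 49508 peaks in length, and the 3 Omni-ATAC lists covered less than each of them, the list of 95457 peaks included. On the scaffold the ranges overlapped: low-input covered 5582 to 8457 bp and Omni-ATAC 3495, 2643 and 8318 bp. No test was made, since the blocks were chosen for this difference. How reads matching several places were treated is not given in the sources used here. Outside both blocks 42 regions of the low-input kind and 82 of the Omni-ATAC kind remained.

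The mRNA matched the cell label. In the 3 mRNA libraries, of 13727122 to 16762472 counts, Pou5f1, Sox2 (159 ± 12.8 CPM) and Zfp42 (413 ± 62.9 CPM) were abundant. Of 9 fibroblast markers, 6 were under 1 CPM, the sum was 9.16 to 32.6 CPM, and Col3a1, Lum and Twist2 were at 0 counts, a limit of 0.219 CPM at most. Markers of primitive endoderm (8 genes) summed to 2.92 to 15.5 CPM, of 2-cell-like cells (7 genes) to 2.26 to 14.5 CPM, and of trophoblast (7 genes) to 30.7 to 31.4 CPM, mostly Krt8 and Krt18. The fibroblast sum was mostly Thy1, at up to 29.2 CPM. The highest sums for fibroblast, primitive endoderm and 2-cell-like markers were those of experiment 1 with 10000 cells, and their part in the differences between lists was not tested.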

How the data were processed

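The authors deposited 1 peak list per ATAC library and a table of gene counts for the mRNA libraries. The lists are mm10 intervals without height or score, the counts are whole numbers per gene, and mm10 coordinates of genes come per the file headers. The submitters' processing notes name cutadapt, Bowtie2 2.1.0, SAMtools 1.3.1, Picard, bedtools 2.24.0, MACS2 2.1.1, STAR 2.5, Subread 1.5.0-p1 and featureCounts; thresholds, filters and ATAC depth are not given in the sources used here. No height exists, so narrow intervals count as much as wide ones.

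Groups came from the sample titles. Interval overlaps (at least 1 bp), exact permutation tests and Wilson intervals (95%) were computed with Python 3.11.15, numpy 2.4.6, pandas 2.3.3 and scipy 1.17.1, and figures with matplotlib 3.10.9. Permutations moved the protocol label within each cell number, with Benjamini-Hochberg adjustment over 8 tests at a threshold of 0.05. Deposited counts were scaled to CPM by library total, with TMM factors (edgeR 4.0.16, R 4.3.3) as an alternative; no gene was tested, because mRNA libraries exist here for 1 protocol. Intervals, and limits of 3 counts for a count of 0, express counting error alone: PCR copies were not told apart by molecular identifiers. The steps were tested on simulated intervals (10 steps, 0 errors). Of 24470 genes, 17878 (73.1%) had a RefSeq promoter sequence (GRCm38.p6) on the same strand within 1000 bp. A TSS is 1 per gene, so other start sites count as gene body or intergenic.

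Members and gene lists were chosen with earlier results of these data known. Named genes are list members, the 10 most expressed genes of each outcome shared by both cell numbers, and the 5 widest gene body and intergenic regions of each; the regions over all 8 lists were added later. The unified peak list was not used. Alternatives were other TSS distances (500 and 2500 bp), peaks of at least 50 bp, equal list length, no chromosome 8, other references, a 50% overlap, TMM factors, a minimum of 1 CPM, and leaving out each replicate. Leaving out the chromosome 9 block and scaffold JH584304 was chosen after seeing the data.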

Additional observations from a re-analysis of the deposited data

Results flagged for a closer look

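In 5 measures the difference between protocols pointed one way with 5000 cells and the other way, in both low-input libraries, with 10000 cells; this reversal was not tested, and the 5000-cell side is 1 library against 1. Low-input minus Omni-ATAC was 9540 peaks with 5000 cells and -6833.5 with 10000 cells. The number of promoters with a peak differed by 3072 and -1390.5. The promoter share of peaks differed by -4.60 and 2.89 percentage points, the gene body share by 3.66 and -1.71 points, and the intergenic share by 0.95 and -1.17 points. When only the 9097 widest peaks of every list were kept, the opposite directions were not present for the number of promoters (470 and 23.5), the promoter share (3.48 and 0.34 points) or the gene body share (-0.53 and -1.13 points), and the intergenic share differed by -2.96 and 0.79 points, so both of its signs turned.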

How the results depend on the processing

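No paired analysis was possible because the Omni-ATAC titles carry no experiment number and the peak lists hold no value per peak to fit. Over 69 alternatives of the 8 tested differences, 63 kept the direction of the mean over both cell numbers, 6 reversed it, and 0 passed the threshold (exact permutation p from 0.167 to 1). Reversals were 1.91 points for the promoter share and -0.83 points for the gene body share at equal list length, 1.32 points for the intergenic share with peaks of at least 50 bp, and 3 when a replicate was left out. The cause was not tested. Leaving out each low-input replicate from 10000 cells moved the difference in peaks between -1395 and 4101.5, in promoter share between -1.87 and 0.15 points and in intergenic share between -0.32 and 0.0936 points. Promoters of low-input alone then ran from 681 to 1399 with 10000 cells and from 231 to 394 at both cell numbers, and of Omni-ATAC alone from 1629 to 3232 and from 71 to 167, where fewer lists have to hold or lack the peak. At equal list length low-input alone had 1750 and Omni-ATAC alone 1280 promoters with 5000 cells, 686 and 875 with 10000 cells, and 204 and 140 at both cell numbers. With peaks of at least 50 bp Omni-ATAC alone had 170 and 14. Without the chromosome 9 block and scaffold, chosen after seeing the data, the same counts were within 1 of those reported. The median CPM of low-input and Omni-ATAC genes was 15.7 and 12.1 with 5000 cells and 15.9 and 10.7 with 10000 cells among genes of at least 1 CPM, and 12.6 and 9.22, then 12.1 and 4.92, with peaks of at least 50 bp. With those peaks the median GC content was 62.7% and 60.7% with 5000 cells and 62.8% for low-input with 10000 cells, and the CpG ratio 0.809 and 0.801 with 5000 cells and 0.765 for Omni-ATAC with 10000 cells. Among genes of at least 1 CPM the ratio was 0.816 and 0.799, and 0.788. The other alternatives, 109 in all, kept their direction or stayed within the stated spread. Unknown ATAC depth limits each difference.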

Other observations

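Promoter peaks of all 5 lists lay mostly upstream of the TSS. The centre was upstream for 65.2% of the low-input and 72.1% of the Omni-ATAC promoter peaks with 5000 cells, and for 65.7% and 60.6% of low-input and 62.9% of Omni-ATAC peaks with 10000 cells. The share that covered the TSS itself was 23.8% and 11.4% with 5000 cells, and 22.8%, 30.1% and 25.6% with 10000 cells. Among promoter peaks of at least 50 bp, 74.7% to 76.9% were centred within 200 bp of the TSS in each list, so the wide peaks of both protocols sat at like distances.

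Between the low-input experiments with 10000 cells, the promoters found by 1 experiment alone differed in their chromosomes. Chromosome 8 held 7.09% of the 2865 promoters found by experiment 2 alone and 0.735% of the 544 found by experiment 1 alone, against 4.89% of all promoters. The cause was not tested.

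Outside the 2 blocks, the widest regions in all 5 low-input lists and no Omni-ATAC list were chosen after their values were seen. With low-input lists taken as 5000 cells, experiments 1 and 2 with 10000 cells and experiments 1 and 2 with 20000 cells, one 206 kb from the Zfp369 TSS (chr13:65484923-65485355) had peaks of 9, 302, 129, 226 and 421 bp. One 16.3 kb from Col18a1 (chr10:77182847-77183174) had 211, 9, 328, 211 and 232 bp. A narrower one near Adgre5 (chr8:83756831-83756985) had peaks of 152 to 155 bp in each of the 5 lists.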
